A study of Mus musculus with 3 samples.

Results

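The comparison set hCD33m microglia against control microglia across all genes, leaving the immediate early genes aside. Cells were taken when they had more than 200 and at most 8000 genes, at least 2000 unique molecular identifiers (UMIs, each 1 counted transcript molecule), at most 10% of UMIs in mitochondrial genes, and fewer than 5 UMIs summed over Mrc1, Ms4a7, Cd163, Lyve1 and Cbr2 and fewer than 5 over Plac8, Ly6c2 and Chil3. The rule left 8878 of the 12420 barcodes of the 2 libraries, 4835 from hCD33m and 4043 from control, of 18340 barcodes in the whole series. The third library, hCD33M, had 3860 cells by the same rule and is given beside the other two for reference.

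CD33 is an inhibitory receptor of the Siglec family, which bind sialic acid on glycans and signal through cytoplasmic tyrosine motifs that recruit phosphatases. It is carried by myeloid cells, including microglia, the resident macrophages of the brain. The long human isoform, hCD33M, has the domain that binds sialic acid and the short isoform, hCD33m, lacks it. The comparison addresses which microglial transcripts differ where the short isoform is present. Microglia also switch on immediate early genes such as Fos and Egr1 within minutes of handling, and these genes were counted apart.

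The control mice were labelled wild type and male, the hCD33M mice male and the hCD33m mice female, whereas the study's methods describe male mice for every genotype. All were 8 weeks old, and each library pooled 2 mice. The hCD33m mice carried a Rosa26 knock-in whose CAG promoter is freed by Cre driven from Cx3cr1, so that expression follows the microglial lineage, and the line descends from 1 injected embryonic stem cell clone of C57BL/6NTac backcrossed to C57BL/6J. Whether the sequenced control mice carried Cre is not given in the sources used here. The study's methods put inhibitors of transcription in the perfusion buffer, and inhibitors of transcription and translation in the buffer for brain homogenisation. None is named for staining or sorting. Brain cells of all groups were sorted as CD11b+ CD45(low) Cx3cr1+ cells and sequenced on the 10x 3′ platform. With 1 library on each side there is no test across animals, and every interval below covers counting error only.

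The kept cells held 28508593 UMIs in control and 35734985 in hCD33m, with medians of 5393 and 5396 per cell. Microglial markers were high in all libraries: Tmem119 stood at 1569 CPM (UMIs of the gene scaled to a common library total) in control and 1517 in hCD33m, and Sall1 at 432 and 433. Of the markers of other lineages, Cd3e, Mog and Cldn5 were at 0 in both. Trbc2, Nkg7, Gzma, Ly6c1 and Slco1a4 of those lists were also at 0 in both. Some further members were not at 0. The B cell markers summed to 334 CPM in control and 350 in hCD33m, mostly Ighm at 293 and 309, and the astrocyte markers to 231 and 195, mostly Slc1a3 at 230 and 194. The oligodendrocyte markers summed to 63.7 and 66.5 CPM, and the endothelial markers to 27.6 and 26.9. The summed neutrophil markers read 2.56 CPM in control and 0.42 in hCD33m, and the summed monocyte markers 14.3 and 19.9. The macrophage markers summed to 10.8 and 9.37 CPM, mostly Mrc1 at 8.84 and 6.10. The rule for cells limited Mrc1, Lyve1, Plac8 and other members of the macrophage and monocyte lists, so these sums were held down by it. Although the hCD33m library was labelled female, Ddx3y from the Y chromosome read 94.3 CPM in control and 95.4 in hCD33m, and Xist 0.11 and 0. The control and hCD33m libraries shared 12 barcodes. The human transgene was not analysed here. Mouse Cd33 read 523 CPM in control, 468 in hCD33M and 471 in hCD33m.

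Outside the immediate early list, hCD33m and control microglia were close. A gene was measured where control or hCD33m reached 20 CPM, and 6768 genes did. Of these, 90.5% lay within 1.2-fold, the median log2 ratio of hCD33m to control was 0.01, and the 5th to 95th percentiles ran from -0.25 to 0.27. A gene was counted as higher or lower where its CPM differed at least 1.5-fold. By this measure 42 genes were higher, 0.621% of the 6768, and 20 were lower, 0.296%. With the immediate early list included, 60 of 6801 genes (0.882%) were higher and 21 (0.309%) were lower, so that list supplied 18 of the former and 1, Myc, of the latter. For hCD33M against the same control, 29 of 6763 genes outside the list were higher (0.429%) and 26 were lower (0.384%). On either side the threshold cut through a continuous range, shown with genes picked for their place in it: Slc15a3 at 0.59 was the last gene counted as higher and Hist4h4, Ccdc152 and Hmgb2 followed at 0.57, while Alox5 at -0.62 was the last counted as lower and Rgs7bp followed at -0.56.

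**Figure D1:**
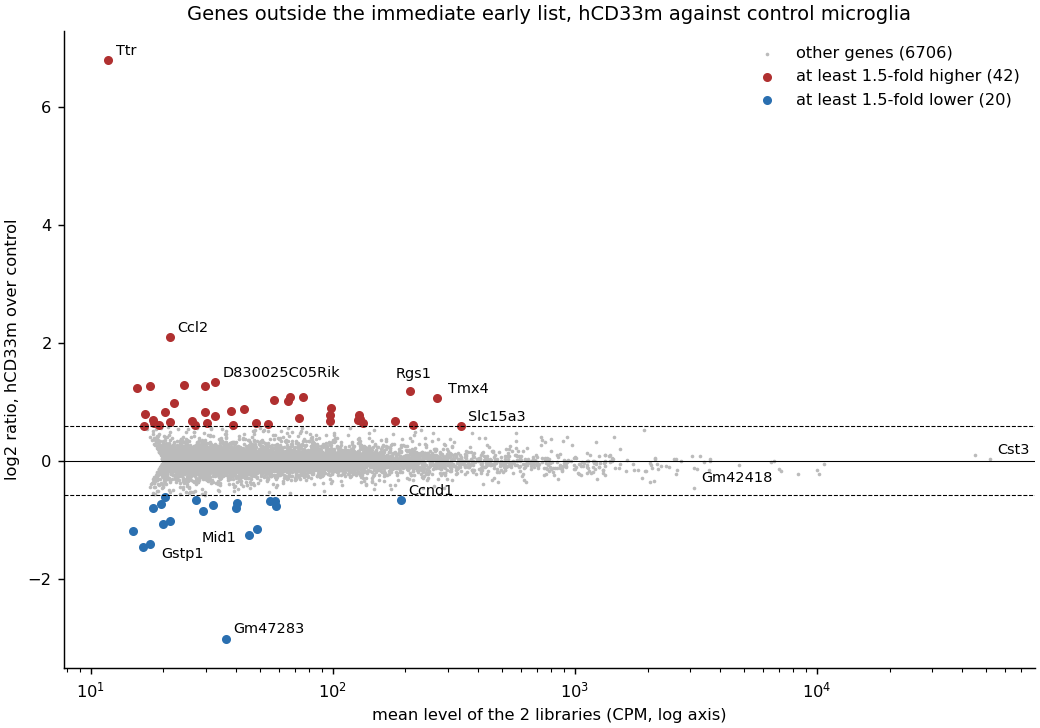
Each point is 1 gene outside the immediate early list, with the mean CPM of the 2 libraries on a log axis and the log2 ratio of hCD33m over control on the other. Dashed lines mark 1.5-fold, and the 42 higher and 20 lower genes lie mostly among genes of low level, with Ttr at 6.80 and Gm47283 at -3.02 farthest out.

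The most abundant transcripts differed little. Cst3, which encodes the protease inhibitor cystatin C, read 51809 CPM in control and 52686 in hCD33m, a log2 ratio of 0.02, and Malat1, a nuclear noncoding RNA, read 43447 and 46671, a ratio of 0.10. The chains of C1q, the first component of complement, were slightly lower in hCD33m, C1qa at 10976 against 9405 CPM (-0.22) and C1qb at 9034 against 7764 (-0.22). Tmsb4x, which sequesters actin monomers, was at -0.05. None of the 10 most abundant genes reached 1.5-fold.

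Chemokines were among the genes with the highest ratios, and some of them also belong to a list of genes known to be induced when brain tissue is dissociated. Of that list 8 genes outside the immediate early list were measured, all 8 were above 0 with a median of 0.55, and 4 were past 1.5-fold, namely Ccl3, Ccl4, Rgs1 and Nfkbiz. The part of tissue handling in these values was not tested. Ccl3 and Ccl4, macrophage inflammatory proteins, and Ccl2, the ligand of the monocyte receptor Ccr2, were the 3 of 13 measured chemokine and cytokine genes past 1.5-fold, and the list's median was -0.07. Beside the counts of both lists, 0.621% of all 6768 genes were at least 1.5-fold higher and 47.6% had a ratio below 0. Ccl3 read 42.5 CPM in control, 26.7 in hCD33M and 90.7 in hCD33m, so that the log2 ratio of hCD33m to control was 1.09 (95% interval 1.00 to 1.19). Ccl4 read 48.0, 25 and 102 CPM in the same order, with the same ratio of 1.09 (1.00 to 1.18). The hCD33M library thus lay below control and hCD33m above it for both genes. Ccl2 read 8.03, 14.5 and 34.5 CPM, a ratio of 2.10 (1.90 to 2.31), with hCD33M between the other libraries.

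These chemokine transcripts were carried by a small part of the cells. The 1% of cells with most Ccl4 UMIs held 77.0% of all Ccl4 UMIs in control and 64.4% in hCD33m, and the single highest cells held 377 and 200 UMIs. With that 1% left out in each library, the ratio of Ccl4 was 1.72 and that of Ccl3 was 1.48, but cells chosen by their own chemokine UMIs took a larger part of the control total, so these values do not weigh the part of such cells. Between bands of UMIs per cell the ratio of Ccl4 ran from 0.45 to 1.56. After every cell was thinned to 2000 UMIs, Ccl4 was found in 2.99% of control cells (exact interval 2.49 to 3.57) and in 6.41% of hCD33m cells (5.74 to 7.14). Ccl3 was found in 4.95% and 9.64%, and Ccl2 in 1.29% and 5.15%. Free RNA in the droplets can add to such shares, and no other cell type was present in numbers that would measure it.

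Rgs1, which speeds the inactivation of G proteins behind chemokine receptors, was the gene of at least 50 CPM with the highest ratio. It lies at chr1:144242296-144249242 (minus strand; mm10) and read 127 CPM in control, 276 in hCD33M and 289 in hCD33m, a ratio of 1.19 (1.13 to 1.24). Both transgenic libraries stood above control, and 19.0% of control cells and 30.9% of hCD33m cells had a UMI after thinning. It was the only one of 33 measured genes of G protein signalling past 1.5-fold, where the median was 0.00. S1pr1, the sphingosine-1-phosphate receptor, read 42.8 CPM in control and 60.8 in hCD33m (0.51), and Rgs7bp, which tethers Rgs proteins to the membrane, 27.9 and 18.9 (-0.56).

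Tmx4, a thioredoxin-like membrane protein of the endoplasmic reticulum (chr2:134594185-134644145, minus strand), read 174 CPM in control, 267 in hCD33M and 365 in hCD33m. Its ratio of 1.07 (1.02 to 1.11) was the highest among genes above 300 CPM in hCD33m outside the immediate early list, and 28.2% of control cells against 42.8% of hCD33m cells carried a UMI. Slc15a3, a lysosomal peptide and histidine transporter, read 270 CPM in control, 323 in hCD33M and 406 in hCD33m (0.59). Acox3, an acyl-CoA oxidase of peroxisomes, read 105, 120 and 163 CPM (0.64), and Ercc5, an endonuclease of nucleotide excision repair, 54.9, 73.6 and 90.9 (0.73). In each of these genes hCD33M lay between control and hCD33m, and Slc15a3 and Acox3 were chosen after their values were seen.

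Wdfy1, an adaptor on endosomes (chr1:79702262-79776143, minus strand), set hCD33m apart from both other libraries. It read 43.5 CPM in control, 40.8 in hCD33M and 87.5 in hCD33m, a ratio of 1.01 (0.91 to 1.11), and the share of cells with a UMI was 8.46% in control and 15.1% in hCD33m. Wdfy1 was 1 of 2 measured genes in a list of genes that differ between C57BL/6J and C57BL/6N mice. The other, Ide, read 28.4 and 31.7 CPM, and Nnt, named although under the level limit, 17.5 in control and 17.6 in hCD33m. Ildr2, an immunoglobulin-like membrane protein chosen after its values were seen, had the same order as Wdfy1, with 14.9 CPM in control, 11.1 in hCD33M and 29.4 in hCD33m (0.99). What part strain background has in these values was not tested.

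**Figure D2:**
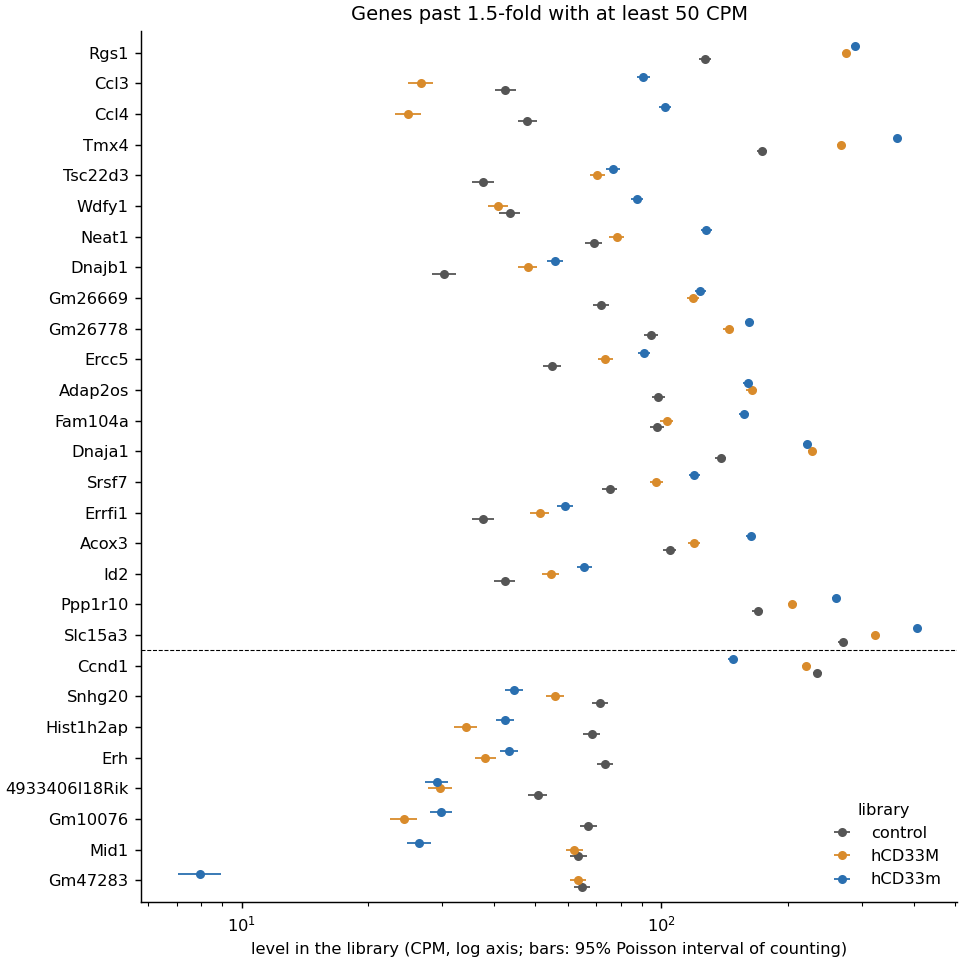
CPM of the 20 higher and 8 lower genes with at least 50 CPM in control or hCD33m, on a log axis, in the control, hCD33M and hCD33m libraries, with 95% Poisson intervals of counting as bars. For Ccl3, Ccl4, Wdfy1, Mid1 and Gm47283 the hCD33m library stands away from both others, whereas for Rgs1, Dnaja1, Adap2os and Gm10076 both transgenic libraries stand away from control.

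A pair of co-chaperones and a pair of glucocorticoid-induced genes were among the 42. Dnajb1, an Hsp40 partner of Hsp70, read 30.3 CPM in control, 48.1 in hCD33M and 56.0 in hCD33m (0.88, interval 0.77 to 1.00), and Dnaja1, another Hsp40 protein, 139, 229 and 222 (0.68, 0.63 to 0.74). They were the 2 of 13 measured heat shock genes past 1.5-fold in hCD33m. The list's median against control was 0.17 in hCD33m and 0.55 in hCD33M. Hspa8, the constitutive Hsp70, read 479 CPM in control, 923 in hCD33M and 667 in hCD33m, so the hCD33M value was the highest of the libraries. Tsc22d3, the glucocorticoid-induced leucine zipper protein, read 37.6, 70.5 and 76.7 CPM (1.03, 0.92 to 1.13), and Errfi1, a feedback inhibitor of the epidermal growth factor receptor, 37.7, 51.3 and 59.0 (0.65). Outside the immediate early list these were the 2 of 7 measured glucocorticoid-responsive genes past 1.5-fold, the list's median was 0.11, and 3 of the 7 were below 0. Against these counts stands the 0.621% of all genes. The metallothionein Mt1 read 203 CPM in control, 146 in hCD33M and 146 in hCD33m (-0.47).

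RNA-processing genes differed by small steps. Srsf7, a splicing factor of the SR family, read 75.3 CPM in control, 97.3 in hCD33M and 120 in hCD33m (0.67, 0.59 to 0.74) and was the only one of 28 measured splicing genes past 1.5-fold. The RNA helicase Ddx5 read 1249 and 1654 CPM in control and hCD33m (0.41), Tra2b 208 and 272 (0.39) and Srsf3 237 and 307 (0.37). In all, 10 of the 28 were at least 1.2-fold higher and none was 1.2-fold lower. Across the 6768 genes, 5.26% were at least 1.2-fold higher and 4.27% at least 1.2-fold lower. Id2, an inhibitor of basic helix-loop-helix factors, read 42.4, 54.5 and 65.6 CPM in control, hCD33M and hCD33m (0.63), and the phosphatase subunit Ppp1r10, chosen after its values were seen, read 170, 205 and 260 (0.62).

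Noncoding genes made up 9 of the 42 higher genes (21.4%) and 5 of the 18 lower genes found in the annotation (27.8%). Among all annotated measured genes they were 1.43%, and among those under 200 CPM in both libraries 1.57%. The 96 measured noncoding genes spread more widely around 0 than the rest, with a standard deviation of the log2 ratio of 0.46 against 0.19, and their median was -0.08. Neat1, the RNA on which nuclear paraspeckles are built, read 69.0 CPM in control, 78.4 in hCD33M and 128 in hCD33m (0.89, 0.82 to 0.97). Gm26778 read 94.3, 145 and 162 CPM (0.78), and Adap2os, antisense to Adap2, 98.4, 164 and 161 (0.71).

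Gm26669 read 71.9 CPM in control, 119 in hCD33M and 124 in hCD33m (0.79). It is annotated at chr12:80108034-80113000 on the plus strand, inside the span of the immediate early gene Zfp36l1. The authors counted with the standard Cell Ranger pipeline, and its use of strand is not described in the sources used here. Whether reads of Zfp36l1 add to the Gm26669 count was not tested. The other higher genes of this kind were chosen after their values were seen: D830025C05Rik read 18.6 and 46.9 CPM in control and hCD33m, B930036N10Rik 17.3 and 42.1, Gm34961 10.3 and 24.8, 2900060B14Rik 9.19 and 21.8, and Gm20186 21.4 and 37.9. Within 100 kb of an immediate early gene lay 2 of the 42 higher genes, Gm26669 and Ppp1r10 (4.76%), and 1.78% of all annotated measured genes.

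Several transcription regulators and some other genes of low level were higher as well. Hlf, a bZIP factor under clock control, read 12.2 CPM in control, 13.6 in hCD33M and 21.2 in hCD33m (0.79), and Nfkbiz, a nuclear modulator of NF-κB, 20.3, 20.7 and 32.3 (0.67). Nfkbiz was the only one of 12 measured NF-κB genes past 1.5-fold, with a list median of 0.09. Chosen after their values were seen, the homeobox factor Prox1 read 15.2 and 23.1 CPM in control and hCD33m, Hexim1, an inhibitor of the elongation factor P-TEFb, 30.7 and 47.0, Arrdc3, an arrestin-domain protein, 27.2 and 49.2, and the metalloprotease Adamts1 14.1 and 34.5.

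Ttr, which encodes the thyroxine carrier transthyretin, had the highest ratio of all, 6.80, and rested on 1 cell. Its UMIs numbered 6 in control and 839 in hCD33m, of which 831 were in a single cell, and in hCD33M 1257 and 508 of 1822 were in 2 cells. With the top 1% of cells left out no Ttr was left to compare. It was counted among the 42 and named after its values were seen.

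On the lower side, the genes with the lowest ratios of at least 50 CPM lay at the tip of the sex chromosomes. Gm47283, annotated at chrY:90784738-90816464, read 64.8 CPM in control, 63.4 in hCD33M and 7.98 in hCD33m, a ratio of -3.02 (-3.21 to -2.84). A UMI was found in 12.5% of control cells (11.5 to 13.6) and 1.51% of hCD33m cells (1.19 to 1.89). Mid1, a ubiquitin ligase at chrX:169685199-170005736 whose gene spans the pseudoautosomal boundary in C57BL/6 mice, read 63.5, 62.1 and 26.5 CPM (-1.26, -1.37 to -1.15). Control and hCD33M thus lay together and hCD33m apart. Transcripts of the Y chromosome outside that tip did not follow: Eif2s3y read 65.7 CPM in control and 61.3 in hCD33m (-0.10), Kdm5d 31.1 and 28.7 (-0.11) and Uty 33.8 and 30.8 (-0.14). Sequence shared between the X and Y copies of this region makes the assignment of reads to these genes uncertain.

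Ccnd1, which encodes the G1 cyclin D1, was the most abundant of the lower genes. It lies at chr7:144929931-144939925 (minus strand) and read 235 CPM in control, 221 in hCD33M and 148 in hCD33m, a ratio of -0.67 (-0.72 to -0.62), with a UMI in 33.5% of control and 23.8% of hCD33m cells. Among 9 measured cell cycle genes it was the only one lower, and none was higher by 1.5-fold. Hmgb2, a chromatin protein, read 94.7 and 140 CPM (0.57), and Pcna, the replication clamp, 28.4 and 41.5 (0.54).

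In another set of lower genes the 2 transgenic libraries stood together below control. Gm10076 read 67.1 CPM in control, 24.3 in hCD33M and 29.9 in hCD33m (-1.16, -1.27 to -1.05). Erh, a small conserved protein of RNA metabolism, read 73.5, 38.1 and 43.4 CPM (-0.76), and the histone gene Hist1h2ap 68.2, 34.2 and 42.5 (-0.68). For these the hCD33M value was the lowest of the libraries. The noncoding 4933406I18Rik read 50.8, 29.7 and 29.2 CPM (-0.80). Snhg20, the host of a small nucleolar RNA, was not of this set, at 71.5, 55.8 and 44.7 CPM (-0.68) with hCD33M between the other libraries.

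Below 50 CPM in both libraries, 12 further genes were lower, and all but Dusp16 were chosen after their values were seen. Dusp16, a phosphatase of JNK, read 40.3 CPM in control, 26.2 in hCD33M and 23.8 in hCD33m (-0.76). Gstp1, a glutathione S-transferase, read 25.6, 7.57 and 9.63 CPM (-1.41), and its near-copy Gstp2 3.26, 0.94 and 1.40, so reads may be split between the copies. Fzd7, a receptor of Wnt ligands, read 20.7, 13.5 and 9.12 CPM (-1.18) and Epha2, a receptor tyrosine kinase, 27.1, 20.1 and 12.9 (-1.07). The lincRNA E230001N04Rik read 24.1, 32.5 and 8.76 CPM (-1.46). The survival gene Bcl2 read 24.3, 16.6 and 14.7 CPM (-0.72) and Alox5, the 5-lipoxygenase, 24.6, 20.9 and 16.1 (-0.62).

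Of the 16 genes with the lowest ratios at 50 CPM or more, 8 were within 1.5-fold. Nlrp3, the inflammasome sensor, read 79.2 CPM in control, 74.7 in hCD33M and 54.5 in hCD33m (-0.54). The complement receptor C5ar1 read 108, 106 and 76.1 CPM (-0.51), Gpr84, a receptor of medium-chain fatty acids, 172, 147 and 123 (-0.48), and Bhlhe41, a transcription factor of tissue macrophages, 275, 251 and 199 (-0.47). In these 4 genes hCD33m was the lowest library.

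**Figure D3:**
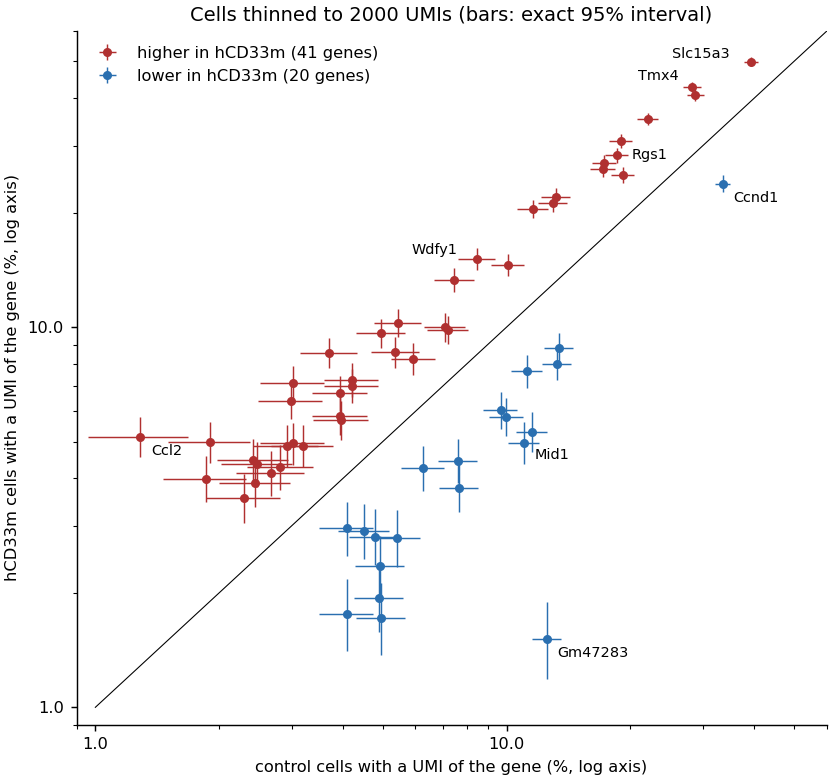
Share of cells with at least 1 UMI after thinning to 2000 UMIs, control against hCD33m on log axes, for the 41 higher genes other than Ttr and the 20 lower genes, with exact 95% intervals of counting. The higher genes lie above the line of equal shares and the lower genes below it, from Ccl2 at 1.29% and 5.15% to Slc15a3 at 39.4% and 49.9%.

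The differences were next set beside the immediate early content of the cells, which was not alike in the libraries. In control, 69.7% of cells were without a UMI of Fos, Fosb, Egr1 or Klf2 after thinning, in hCD33M 35.2% and in hCD33m 17.3%. Cells with 3 or more such UMIs were 3.98%, 24.4% and 51.5% in the same order. Within the cells without such a UMI, 26 of the 42 higher genes were still past 1.5-fold and all 42 lay above 0, with a median of 0.64 against 0.78 over all cells. Within cells with 3 or more, 31 of the 42 were past 1.5-fold and 40 lay above 0, the exceptions being Ypel2 at -0.20 and Ints6 at -0.0040, both named after their values were seen. Of the 20 lower genes 18 were past 1.5-fold in the cells with none, with a median of -0.83, and 19 in those with 3 or more. These cells are part of those that chose the genes, so the counts describe the list and are no separate evidence. Cells were grouped by thinned counts, whereas the ratios used all UMIs, so early content was not equal within a group. In the cells with none after thinning, Fos read 25.6 CPM in control and 125 in hCD33m. In those with 3 or more it read 236 and 736.

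Genes differed in how far they held. By the same groups of thinned counts, Rgs1 had a ratio of 0.67 in cells with none, 0.72 with 1 to 2 and 1.04 with 3 or more. Tmx4 had 0.54, 0.77 and 1.00. Ccl4 was at 1.06 and 1.78 in cells with none and with 1 to 2 and at 0.29 (-0.03 to 0.64) in cells with 3 or more, an interval that includes 0. That last group held 161 control cells and 2490 hCD33m cells. The interval leaves out the spread between cells, which was wide for Ccl4. In the cells with none, Adamts1 was at 0.34, Nfkbiz at 0.18 and Hexim1 at 0.16. Wdfy1 stayed at 0.98, 0.96 and 1.2, Dnajb1 at 0.88, 0.85 and 0.99, Ccnd1 at -0.73, -0.68 and -0.59, and Gm47283 at -3.16, -3.26 and -2.98. The part of immediate early content in the ratios that shrank was not tested.

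**Figure D4:**
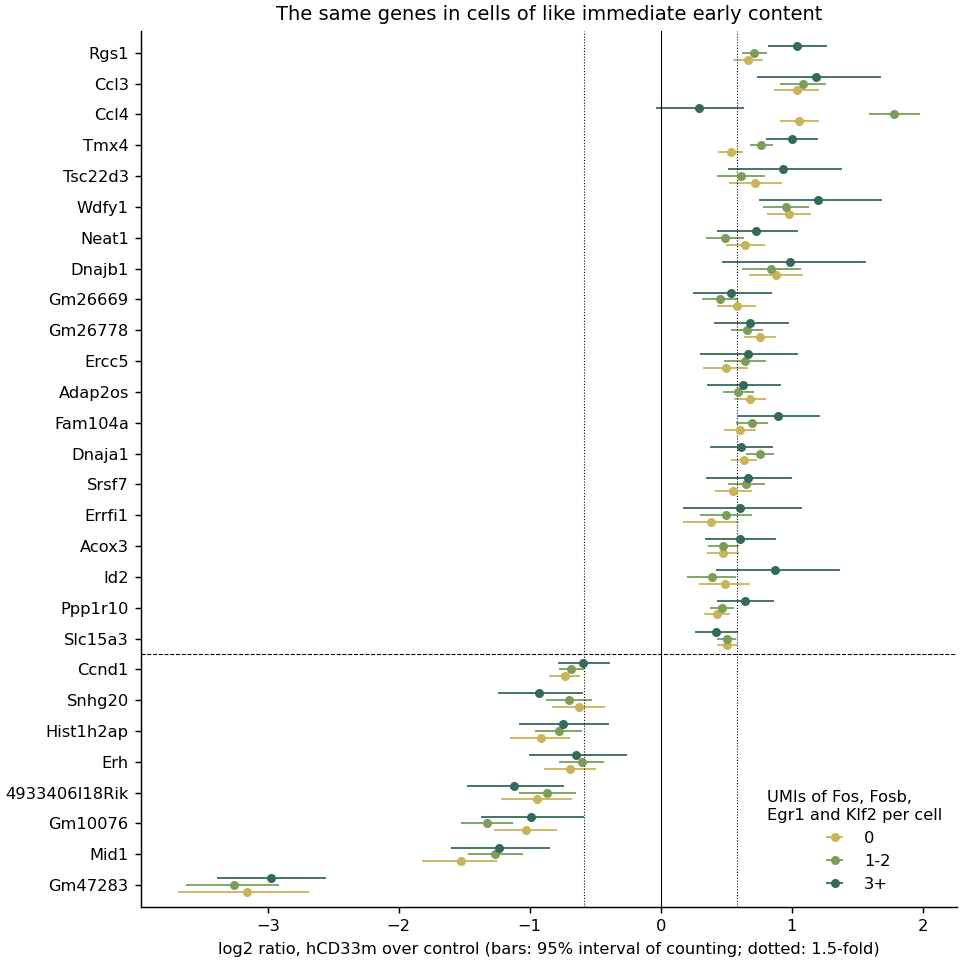
Log2 ratio of hCD33m over control for the 28 genes with at least 50 CPM past 1.5-fold, with 95% intervals of counting as bars and dotted lines at 1.5-fold. Cells are grouped by 0, 1 to 2 and 3 or more UMIs of Fos, Fosb, Egr1 and Klf2 after thinning, which does not make early content equal within a group. Rgs1 and Tmx4 have lower ratios in the cells with none, and Wdfy1, Ccnd1, Mid1 and Gm47283 keep theirs. Ccl4 has a lower ratio in the cells with 3 or more, where control had 161 cells.

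Promoter sequence from RefSeq (GRCm38.p6, 250 bases before to 50 after the start) was matched to 37 of the 62 genes and 5378 of the 6768. The AP-1 motif TGANTCA, read on both strands, was in 0 of 24 higher promoters, 2 of 13 lower ones and 4.50% of all. The cyclic AMP response element TGACGTCA was in 1 of 24, 1 of 13 and 3.53%, the heat shock motif GAANNTTC in 2 of 24, 1 of 13 and 5.56%, and TATAAA in 3 of 24, 1 of 13 and 6.27%. The E-box CACGTG was in 1 of 24, 0 of 13 and 11.6%, and an interferon-response motif in 0 of 24, 0 of 13 and 3.16%. GGGCGG was in 19 of 24, 9 of 13 and 67.5%, and a loose NF-κB motif in 14 of 24, 7 of 13 and 68.1%. These matches are a description and no sign of binding. The RefSeq starts were not always those of GENCODE. By GENCODE, Dnaja1 begins at chr4:40722150, so its stretch below lies inside the gene, and Gstp1 begins at chr19:4037985, within its stretch. The stretches of 4 promoters that hold the rarer motifs are shown 5′ to 3′ on the strand of the gene, with the motif in capitals: 2 from higher genes, Dnaja1 (heat shock, chr4:40722304-40722391, plus strand) and Hlf (TGACGTCA, chr11:90390918-90390966, minus strand), and 2 from lower genes, Gstp1 (AP-1, chr19:4037940-4038026, minus strand) and Epha2 (TGACGTCA, chr4:141301148-141301220, plus strand).
Dnaja1: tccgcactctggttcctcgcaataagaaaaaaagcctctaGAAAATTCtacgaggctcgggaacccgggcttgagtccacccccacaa
Hlf: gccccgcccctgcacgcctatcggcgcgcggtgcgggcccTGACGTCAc
Gstp1: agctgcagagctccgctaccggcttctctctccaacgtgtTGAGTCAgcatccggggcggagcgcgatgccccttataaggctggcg
Epha2: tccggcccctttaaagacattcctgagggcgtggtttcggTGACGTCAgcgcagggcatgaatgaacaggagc

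Most of the gene lists examined held no gene past 1.5-fold. Of 47 lists, 32 had none, and list medians ran from -0.21 for mitochondrially encoded genes to 0.33 for cold-inducible genes among these 32. Over all measured genes 47.6% had a ratio below 0, which is the background for the counts of direction that follow.

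Homeostatic surface genes of microglia were nearly level. All 25 were measured, none passed 1.5-fold, and the median was -0.05 with 20 below 0. Olfml3, a secreted glycoprotein, read 2306 CPM in control, 2197 in hCD33M and 1804 in hCD33m (-0.35), and Fcrls, an Fc receptor-like protein, 2085, 2054 and 1709 (-0.29). The 17 measured transcription factors of microglial identity had a median of 0.01, with Cebpa at 177 and 213 CPM in control and hCD33m (0.27). Among 18 disease-associated genes the median was 0.02. Cst7, the cystatin F gene, read 20.6 and 29.8 CPM (0.54), and Csf1, a growth factor of macrophages, 21.0 and 15.4 (-0.45).

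Genes of innate recognition mostly had ratios below 0 without passing 1.5-fold. All 8 measured complement genes were below 0 with a median of -0.17, and so were all 7 Fc receptor genes with a median of -0.20, where Fcgr4 read 22.1 and 15.5 CPM in control and hCD33m (-0.52). Of 11 interferon-stimulated genes 10 were below 0, with a median of -0.18; Ifi27l2a read 50.8 CPM in control, 49.2 in hCD33M and 38.1 in hCD33m (-0.42). Toll-like receptor and MyD88 genes had 12 of 19 below 0 (median -0.12), Tlr13 reading 111, 94.1 and 87.5 CPM (-0.34). In the Siglec and ITIM list of 13 the median was -0.02, and Siglece, an inhibitory Siglec of mouse myeloid cells, read 95.1, 99.1 and 72.8 CPM (-0.39).

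Antigen presentation genes had a median of -0.13 over 15 measured, and none passed 1.5-fold. H2-D1, a class I heavy chain, read 707 CPM in control, 660 in hCD33M and 549 in hCD33m (-0.37). H2-Aa, a class II chain, read 30.3, 19.9 and 41.7 CPM (0.46), and H2-Eb1 26.7, 17.2 and 35.8 (0.42). Class II transcripts came from very few cells: those with more than 20 UMIs of H2-Aa were 8 of 4043 in control (0.198%, exact interval 0.085 to 0.390) and 22 of 4835 in hCD33m (0.455%, 0.285 to 0.688), and they held 94.1% and 91.1% of its UMIs. Of these cells 6 and 15 also had a UMI of the microglial gene P2ry12. The class II direction was not stable: H2-Aa was at -0.12 in the highest of 4 bands of UMIs per cell and at -1.12 in cells with 1 to 2 UMIs of the early genes, and H2-Eb1 at -0.05 and -1.05.

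Phagocytosis and lysosome genes, which cover functions studied for CD33, had small ratios. The 21 measured phagocytosis genes had a median of -0.05 and a range from -0.29 to 0.09, with Stab1, a scavenger receptor, at 259 CPM in control and 212 in hCD33m (-0.29). The 28 lysosomal genes had a median of -0.04, with the protease Ctsc at 512 and 419 CPM (-0.29). The 23 measured Alzheimer risk genes had a median of -0.02. Ms4a6d read 150 CPM in control, 140 in hCD33M and 119 in hCD33m (-0.34). Apoe, a lipid carrier, read 659, 455 and 552 CPM (-0.25), and with its top 1% of cells left out the ratio was -0.05. Its direction was not stable. From the lowest to the highest band of UMIs per cell the Apoe ratio was -0.48, 0.22, -0.21 and -0.40. In cells with 0, 1 to 2 and 3 or more UMIs of the early genes it was -0.40, -0.53 and 0.23. Autophagy genes had 15 of 17 above 0 (median 0.12), among them Ulk1, a kinase that starts autophagy, at 15.2 and 22 CPM (0.54) and Gabarapl1 at 24.6 and 34.4 (0.48).

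Chaperones of the endoplasmic reticulum lay on the other side of control in the 2 transgenic libraries. Of 19 measured genes of the unfolded protein response 15 were below 0 in hCD33m, with a median of -0.12, while the median of the same genes in hCD33M against control was 0.14. Pdia6, a disulfide isomerase, read 476 CPM in control, 533 in hCD33M and 364 in hCD33m (-0.39). Sdf2l1 read 197, 213 and 149 CPM (-0.41) and Hsp90b1, the Hsp90 of this compartment, 1359, 1527 and 1104 (-0.30). All remained within 1.5-fold.

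No metabolic or ribosomal protein gene passed 1.5-fold. The 12 measured mitochondrially encoded genes were all below 0, with a median of -0.21 in hCD33m and -0.23 in hCD33M, and mt-Co1 read 2381 CPM in control, 1769 in hCD33M and 1885 in hCD33m (-0.34). The median share of UMIs in mitochondrial genes per cell was 1.5% in control and 1.28% in hCD33m. The 52 nuclear genes of oxidative phosphorylation had a median of 0.03 and a range from -0.14 to 0.20. In glycolysis, with a median of -0.04 over 16 genes, hexokinase Hk2 read 317, 442 and 439 CPM (0.47) and enolase Eno1 147, 108 and 120 (-0.29). The 5 measured cholesterol synthesis genes were all below 0 with a median of -0.12, and of 81 ribosomal protein genes 59 were below 0 with a median of -0.05.

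**Figure D5:**
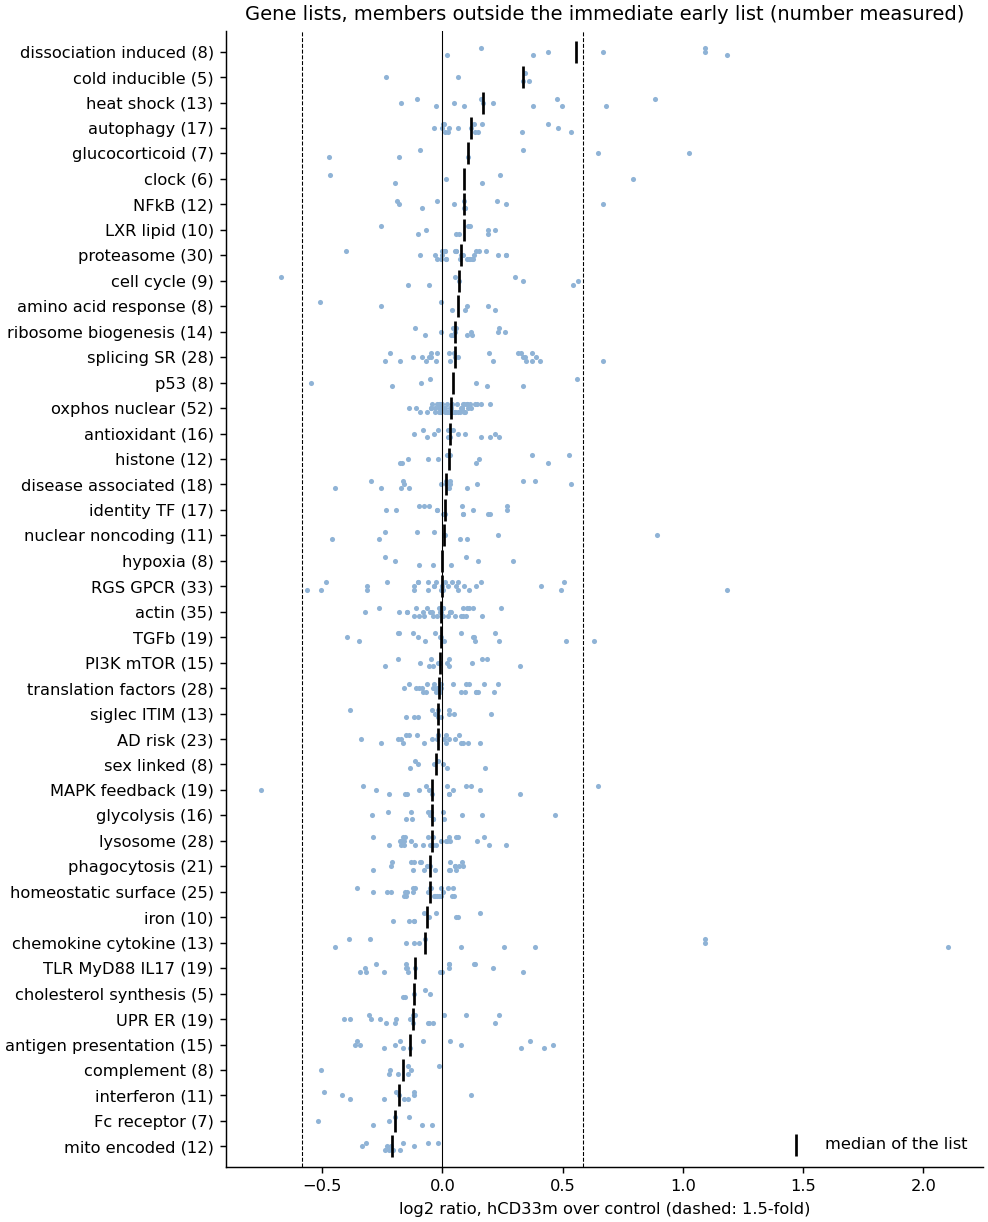
Log2 ratio of hCD33m over control for the measured members of each gene list outside the immediate early list (points, number measured in brackets), with the list's median as a bar and dashed lines at 1.5-fold; lists with fewer than 5 such members and the ribosomal protein genes are not drawn. Most medians lie close to 0, and single members such as Ccl2, Rgs1 and Neat1 lie past the line in lists whose medians do not.

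The nearest measured genes on either side of the engineered loci, 5 per side, were within 1.5-fold, though some lay far off. The 10 around Gt(ROSA)26Sor had ratios from -0.20 (Thumpd3) to 0.18 (Sumf1). Their offsets ran from -6282 kb (Crbn) to 300 kb (Tada3), with Sumf1 at -4926 kb and Thumpd3 at -15.1 kb. Gt(ROSA)26Sor itself, a noncoding gene, read 32.8 CPM in control, 24.3 in hCD33M and 37.7 in hCD33m. The 10 around Cx3cr1, at offsets from -647 to 959 kb, had ratios from -0.37 to 0.41. Cx3cr1 itself read 3561, 3865 and 3658 CPM.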

How the data were processed

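Single-cell RNA-seq counts of brain microglia were deposited as 3 tables of genes by barcodes, 1 for each genotype. The authors aligned reads to mm10 with Cell Ranger and imported them to Seurat, keeping barcodes with more than 200 genes, and the deposited values are raw UMI counts. Cells were filtered as given above; doublets were removed by no other step than the limit of 8000 genes. UMIs were summed over cells and scaled to CPM, with Poisson intervals for levels, conditional binomial intervals for ratios and Clopper-Pearson intervals for shares, all at 95% and for counting error only. Genes needed 20 CPM in 1 library. Cells of 1 library are not replicates, so no p-value was computed. UMIs per kept library ran from 28508593 to 35734985.

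Named genes were the 16 highest and 16 lowest ratios among genes of at least 50 CPM, up to 4 per list with the largest ratios, the 10 most abundant, those beside the 2 loci and sex-linked genes. The cells, gene lists and comparison were chosen with earlier results of these data known. Positions are from GENCODE M21 (mm10). Sums were made in Python 3.11.15 with numpy 2.4.6, pandas 2.3.3 and scipy 1.17.1; TMM factors came from edgeR 4.0.16. The ratio was tested on simulated data. Alternatives to the cell filters, scaling, level limit and fold are described in the closing section. A few genes are not reported here.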

Additional observations from a re-analysis of the deposited data

Results flagged for a closer look

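The hCD33M library, which takes no part in the comparison, held haemoglobin transcripts that were at or near 0 in both other libraries. Hbb-bs read 140.9 CPM, Hba-a1 49.8 CPM and Hba-a2 36.5 CPM in hCD33M cells. Of the Hbb-bs UMIs 4173 of 4208 were in 1 cell.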

How the results depend on the processing

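The 42 higher and 20 lower genes depended most on the level and fold limits. A minimum of 50 CPM gave 20 higher and 8 lower, a minimum of 10 CPM 68 and 36, and a 2-fold limit 13 and 8. Thinning every cell to 2000 UMIs gave 38 lower genes. Cells with no UMI of Fos, Fosb, Egr1 or Klf2 after thinning gave 35. Fewer UMIs were summed in both cases. The other alternatives gave from 36 to 52 higher and from 20 to 26 lower genes, and the higher count was 51 after thinning and 38 in cells with no such UMI. TMM scaling left both counts as they were. None of the 62 genes changed direction under the 13 settings that gave it a ratio. Ttr lost its ratio or its call under 2 of them. No paired analysis was possible because each genotype had 1 library. Genes near 20 CPM had few UMIs in many of the views, which limits what can be said of them singly, and animals within a library could not be separated.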
